A study of Mus musculus with 12 samples.

Results

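Chemokine genes were taken from a table of transcript levels as every entry whose symbol begins with Cxcl or Ccl and a digit, together with Cx3cl1, which gave 29 of 19439 entries. Of these, 15 reached 1 RPKM (reads per kilobase of transcript, scaled to the mapped reads of the library) in at least 3 of the 12 samples and were tested, and 14 did not. The samples came from 2 lines of 3T3 cells, mouse embryonic fibroblasts that grow without limit in culture. The lines had wild-type p53 (WT) or were p53 -/- (p53-null). Both were kept for 18 h in DMEM, a standard culture medium, either containing 2 mM L-glutamine (complete) or lacking it (glutamine-free). Each of the 4 groups held 3 samples. Each genotype was represented by 1 line, so genotype and line cannot be told apart, and no label says whether a group's samples were grown separately. The p-values below therefore reflect the spread among these samples alone, which may be technical. In RNA from whole cultures, fewer cells making a transcript and less of it per cell cannot be told apart.

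RPKM summed to between 284426 and 319735 per sample, and samples of one group correlated across entries at r = 0.998 to 0.999 in 12 comparisons, where entries are not independent of each other. The depth of each library is not given in the table. Trp53, which encodes p53, was 58.5 ± 0.585 RPKM (SD, n = 3, as for all values below) in WT complete samples and 28.8 ± 0.873 RPKM in p53-null complete samples. Transcript was thus still counted in the p53-null line, and the table does not resolve the exons of a gene. Of 10 fibroblast markers 9 had a mean of at least 1 RPKM in each group. The exception was the surface marker Thy1, which was at most 0.0282 RPKM in WT complete samples, with 2 of 3 listed at 0, and was listed at 0 in the 3 WT glutamine-free samples. The epithelial keratin gene Krt18 was listed at 0 in the WT complete samples and was 59.6 ± 0.665 RPKM in the p53-null complete samples.

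Chemokines are small secreted proteins that direct the movement of leukocytes through G protein-coupled receptors, and they are classed as CXC, CC or CX3C by the spacing of their first cysteines. CXC chemokines with a glutamate-leucine-arginine (ELR) motif attract neutrophils through the receptor CXCR2, the ligands of CXCR3 attract activated T cells and natural killer cells, and several CC chemokines attract monocytes through CCR2. Fibroblasts are a known source of many of them, inflammatory members being induced through the transcription factor NF-kB and through interferon signalling, while CXCL12 is made without such stimulation and holds haematopoietic cells in the bone marrow through CXCR4.

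WT cells in complete medium made the most chemokine transcript and p53-null cells without glutamine the least. Summed over the 29 genes, the level was 684, 664 and 662 RPKM in the WT complete samples, 110, 103 and 104 RPKM in the WT glutamine-free samples, 152, 149 and 149 RPKM in the p53-null complete samples, and 77.1, 77.5 and 78.7 RPKM in the p53-null glutamine-free samples. The groups did not overlap. The sum of the 10 fibroblast markers moved in the same directions with the medium. It was 4125 to 4145 RPKM in WT complete and 1028 to 1036 RPKM in WT glutamine-free samples. In the p53-null line it was 2503 to 2540.2 RPKM in complete and 1432 to 1458 RPKM in glutamine-free samples. Among these markers the collagen gene Col1a1 was 240.2 ± 2.12 RPKM in WT complete and 10.97 ± 0.406 RPKM in WT glutamine-free samples, and the vimentin gene Vim 760.0 ± 5.62 and 72.3 ± 0.910 RPKM. Smaller WT falls were those of Dcn, from 471.6 ± 7.05 to 216.4 ± 2.80 RPKM, and Fn1, from 906.2 ± 1.52 to 498.2 ± 3.07 RPKM. In p53-null cells Fn1 was 521.4 ± 7.81 RPKM in complete and 538.4 ± 1.57 RPKM in glutamine-free samples. The other markers had lower means there without glutamine. Their part in the chemokine values was not tested. In WT complete medium Cxcl5 and Cxcl1 held 29.5% and 25.5% of the sum, followed by Cx3cl1 with 14.3%, Ccl5 with 10.8% and Cxcl12 with 9.28%. In the p53-null line Cxcl12 alone held 74.7% in complete and 86.6% in glutamine-free medium. A mean of at least 10 RPKM was reached by 7 members in WT complete, 4 in WT glutamine-free, 2 in p53-null complete and 1 in p53-null glutamine-free cells.

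**Figure D1:**
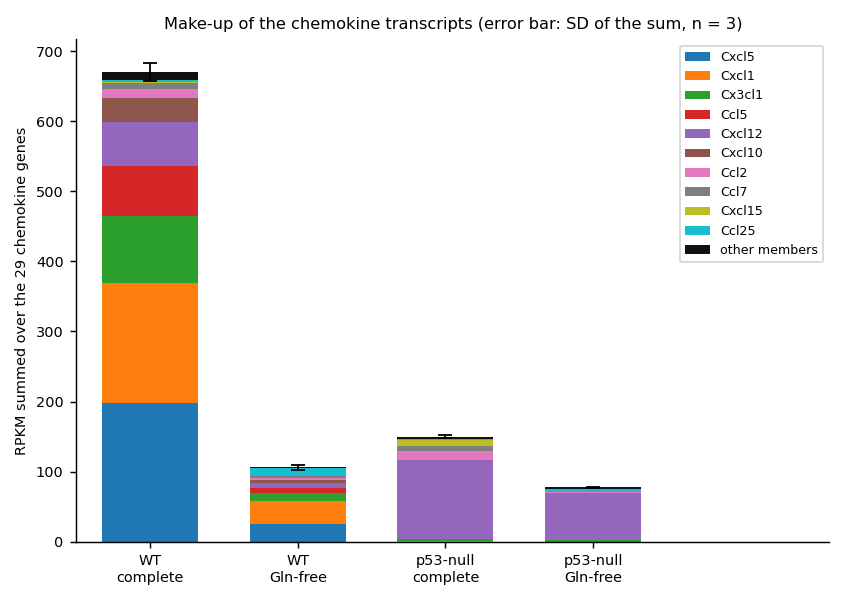
RPKM summed over the 29 chemokine genes (vertical axis) in the 4 groups, split by gene. Bars are stacked group means, the error bar is the SD of the sum over 3 samples, and Gln-free stands for glutamine-free. The WT complete bar is the highest, with Cxcl5 and Cxcl1 as its largest parts, and Cxcl12 makes up most of both p53-null bars.

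On glutamine withdrawal 12 of the 15 tested members fell in WT cells, 1 rose (Ccl25) and 2 did not pass the test (Cxcl15 and Ccl27a). For comparison, 44.0% of all 11461 tested entries fell and 46.0% rose at the same threshold, an adjusted p under 0.05 in limma, a linear model fitted across all entries on log2(RPKM + 1). A log2 fall of at least 1 was called for 11 of the 15, against 12.9% of all entries. The median log2 change was -1.83 for the members and 0.01 for all entries. In p53-null cells 8 fell and 2 rose, against 32.0% and 50% of all entries, and 3 of these falls reached a log2 change of -1, against 2.03% of all entries. The median log2 change there was -0.18 for the members and 0.08 for all entries. With each library centred on its median, 13 members were called lower and 1 higher in p53-null cells, and all entries split into 4525 higher and 4984 lower instead of 5732 and 3671 as without it. These counts are a description and not support for a change of the class, because 5 of the 15 (Ccl9, Ccl17, Cxcl3, Cxcl15 and Cxcl16) reached 1 RPKM in the samples of 1 group alone and could pass the filter only by being high there. Of the 4 members that reached 1 RPKM in all 12 samples, Ccl2, Cx3cl1 and Cxcl12 fell and Ccl25 rose in both lines.

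**Figure D2:**
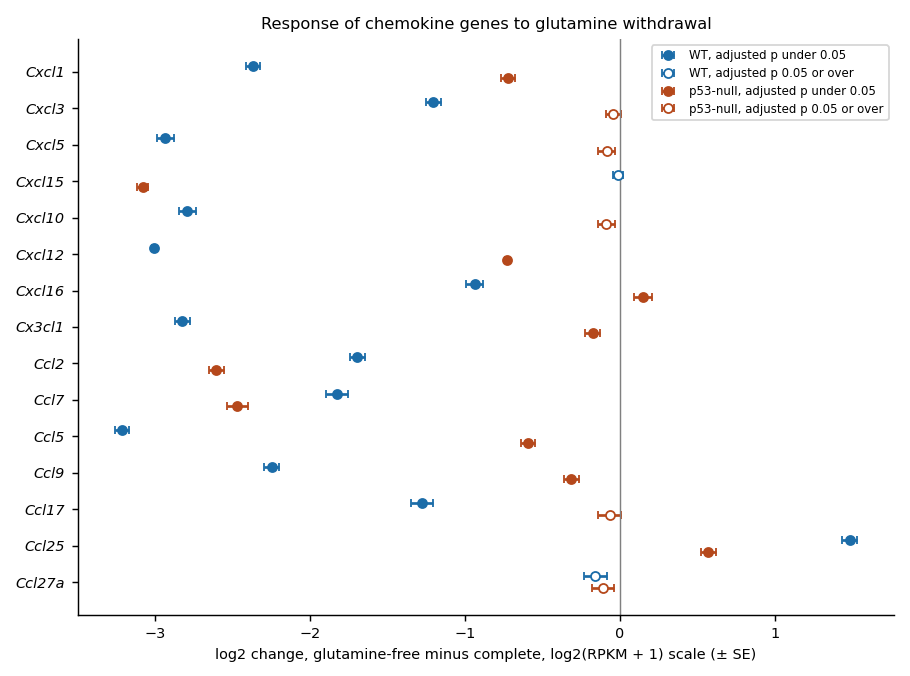
Log2 change from complete to glutamine-free medium (horizontal axis, log2(RPKM + 1) scale) for the 15 tested chemokine genes in WT (blue) and p53-null (red-brown) cells. Points are limma estimates from 3 samples per group, bars are standard errors, and filled points passed an adjusted p of 0.05. Most blue points lie left of 0, Ccl25 lies right of 0 in both lines, and Ccl2, Ccl7 and Cxcl15 lie further left in p53-null cells.

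The p53-null line had lower levels than WT for 11 of the 15 in complete medium and for 9 in glutamine-free medium, and higher levels for 3 in each. Of all entries 42.5% were lower and 48.4% higher in complete medium, and 40.0% and 51.4% in glutamine-free medium. Differences of at least 1 on the log2 scale towards lower levels were called for 9 members in complete medium, against 10.9% of entries, and for 7 in glutamine-free medium, against 7.88%. These counts too are a description, and nothing is read from them against the shares of all entries. Ccl5, Ccl9, Ccl17, Cxcl3, Cxcl5, Cxcl10 and Cxcl16 passed the filter through WT samples alone, and Cxcl15 and Ccl27a through p53-null samples alone. In complete medium the direction between the lines was therefore set by the filter for these 9 of the 15. In glutamine-free medium it was so set for Ccl5, Cxcl5, Cxcl10 and Ccl27a, since the others of the 9 reached 1 RPKM in complete medium alone. Of the 4 members at 1 RPKM or more in all 12 samples, Cx3cl1 and Ccl25 were lower and Cxcl12 higher in the p53-null line in both media, and Ccl2 was lower in glutamine-free medium. The members called higher in the p53-null line in both media were Cxcl12, Ccl27a and Cxcl15, where the call of Cxcl15 in glutamine-free medium was lost with a replicate block (adjusted p = 0.061) and its difference turned with median centring (-0.06, adjusted p = 0.13). The line comparisons use the same samples as the medium comparisons, so the values stand side by side and were not correlated.

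**Figure D3:**
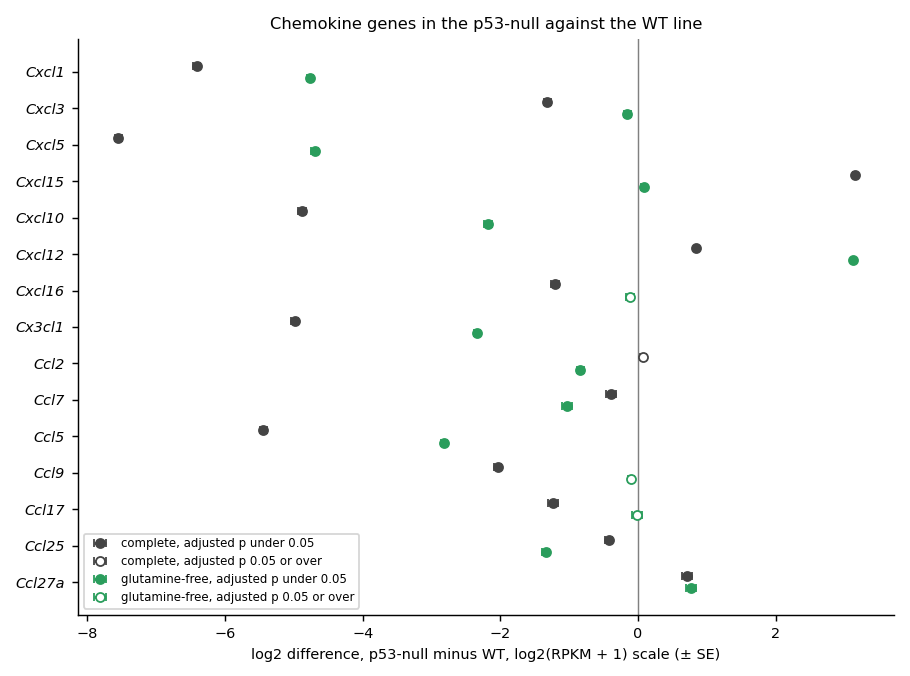
Log2 difference between the p53-null and the WT line (horizontal axis, p53-null minus WT, log2(RPKM + 1) scale) for the 15 tested chemokine genes in complete (dark grey) and glutamine-free (green) medium. Points are limma estimates from 3 samples per group, bars are standard errors, and filled points passed an adjusted p of 0.05. Cxcl5 and Cxcl1 lie furthest left in both media, while Cxcl12 lies right of 0 in both and Cxcl15 well to the right in complete medium.

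The response to withdrawal differed between the lines for 14 of the 15 tested members by limma's test of the difference. It was higher, which here means a smaller fall, no called change or a rise, in p53-null cells for 10 and lower for 4 (Ccl2, Ccl7, Cxcl15 and Ccl25), against 46.4% and 38.4% of all entries. A difference of at least 1 on the log2 scale was called for all 10 of the former, against 9.98% of entries, and for Cxcl15 among the latter, against 5.58%. Nothing is read from these counts, because Ccl9, Ccl17, Cxcl3, Cxcl16 and Cxcl15 passed the filter only through the 1 group where they were high, which builds in a larger fall in that line. Ccl5, Cxcl5 and Cxcl10 passed it through WT samples alone. They were under 1 RPKM in every p53-null sample, which limits their fall there on the log2(RPKM + 1) scale. Among the 4 members at 1 RPKM or more in all 12 samples, the response was higher in p53-null cells for Cxcl12 and Cx3cl1 and lower for Ccl2 and Ccl25. Ccl17, Cxcl3, Cxcl5, Cxcl10 and Cxcl16 fell in WT and were not called lower in p53-null cells, where their levels in complete medium were all under 0.5 RPKM, where the log2(RPKM + 1) scale leaves little room for a fall.

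The ELR CXC genes under the name rule lie within 147 kb on the plus strand of chromosome 5 (mm10). Their order there is Cxcl5, Cxcl3, Cxcl15, Cxcl1 and Cxcl2, and their levels did not follow it. Genes outside the rule, such as the ELR CXC gene Ppbp (9.94 ± 0.686 RPKM in WT complete samples), were not placed among them. In WT complete medium the means of these members in that order were 198, 1.57, 0.0158, 171 and 0.0930 RPKM. Members near or under 1 RPKM thus lay between and beside the genes with the highest chemokine levels of the data. The stretches upstream of the starts of 4 of these genes are given because Cxcl1, Cxcl2 and Cxcl3 hold the same letters there at very different levels. They are from RefSeq on GRCm38.p6, 5′ to 3′ on the plus strand, end before the first annotated base of the transcript, and carry in capitals the matches to the kappaB consensus, the motif bound by NF-kB.
Cxcl1: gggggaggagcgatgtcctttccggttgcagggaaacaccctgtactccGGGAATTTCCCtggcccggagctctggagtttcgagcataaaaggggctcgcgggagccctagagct
Cxcl2: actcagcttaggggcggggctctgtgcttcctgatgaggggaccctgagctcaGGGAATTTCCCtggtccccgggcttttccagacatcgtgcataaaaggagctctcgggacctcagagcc
Cxcl3: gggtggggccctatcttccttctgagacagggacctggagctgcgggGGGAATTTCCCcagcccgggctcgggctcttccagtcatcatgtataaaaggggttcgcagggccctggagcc
Cxcl15: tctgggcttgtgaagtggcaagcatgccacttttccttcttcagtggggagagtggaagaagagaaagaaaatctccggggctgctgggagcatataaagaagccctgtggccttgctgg

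These stretches are chr5:90891125-90891240 (Cxcl1), chr5:90903749-90903870 (Cxcl2), chr5:90785981-90786100 (Cxcl3) and chr5:90794414-90794533 (Cxcl15). The run GGGAATTTCCC holds a kappaB match on each strand, overlapping by all but 1 base at either end, and the window was counted once. Cxcl15 held no match in its window of 300 bases around the start. Of 32851 such windows in the RefSeq table, 8.46% held a kappaB match on either strand, and among tested chemokines 5 of 13 windows did (Cxcl1, Cxcl3, Cxcl10, Ccl9 and 1 of the 3 windows of Ccl27a, there after the start). The table held windows for 20 of the 29 members and 10 of the 15 tested, which leaves out Cxcl5, Cxcl16, Ccl2, Ccl5 and Ccl7. The AP-1 motif TGANTCA, found in 7.81% of all windows, was present for Cxcl10, Ccl9 and Ccl27a, and the C/EBP-ATF motif TGATGNAA, found in 3.97%, for Ccl27a. A match is a description of the letters and not a site shown to be bound.

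Cxcl1, a ligand of CXCR2 (chromosome 5, 90891241 to 90893115), was 171.1, 171.6 and 169.9 RPKM in the WT complete samples and 33.9, 31.3 and 31.8 RPKM in the WT glutamine-free samples. Its p53-null values were 1.001, 0.877 and 1.18 RPKM in complete and 0.211, 0.225 and 0.233 RPKM in glutamine-free medium. The 4 groups did not overlap, and the highest p53-null sample was far under the lowest WT sample. Withdrawal lowered the mean 5.29-fold in WT (log2 change -2.37 ± 0.0451 SE, limma adjusted p = 1.5e-14) and 4.57-fold in p53-null cells (-0.72 ± 0.0451, adjusted p = 7.2e-09). These folds of the means were much closer than the log2 values, because adding 1 RPKM compresses changes under 1 RPKM. The p53-null line was 168-fold lower in complete medium (log2 difference -6.41 ± 0.0451, adjusted p = 2.0e-18) and 145-fold lower in glutamine-free medium.

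Cxcl5, another CXCR2 ligand (chromosome 5, 90759360 to 90761624), was the highest chemokine in WT complete medium, at 207, 194 and 193 RPKM. It was 28.0, 23.6 and 23.6 RPKM in the WT glutamine-free samples, a 7.89-fold fall of the mean (log2 change -2.94 ± 0.0530, limma adjusted p = 9.3e-15). Its p53-null values were 0.0717, 0.0515 and 0.0602 RPKM in complete medium and was listed at 0 in the 3 glutamine-free samples. All WT samples therefore lay far above all p53-null samples (log2 difference in complete medium -7.55 ± 0.0530, limma adjusted p = 2.0e-18). Only WT samples of Cxcl5 reached 1 RPKM, so the direction of this difference was set by the filter. The fall within the p53-null line did not pass on the log2(RPKM + 1) scale (limma adjusted p = 0.15). It did pass with a pseudocount of 0.1 (adjusted p = 9.2e-07) or 0.5 (0.015), with median centring (0.0053), with the 2 groups fitted alone (0.0043), and without WT glutamine-free replicate 1, which enters through the shared spread (0.015).

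Cxcl3, a close paralog of Cxcl2 that also signals through CXCR2, was 1.40, 1.72 and 1.61 RPKM in WT complete medium and 0.0672 to 0.151 RPKM without glutamine. Among p53-null samples it did not exceed 0.0700 RPKM in complete medium and was listed at 0 in glutamine-free medium. The WT fall was 13.6-fold in the means (log2 change -1.20 ± 0.0482, limma adjusted p = 2.9e-11), and the fall in p53-null cells did not pass (adjusted p = 0.43), except with median centring (0.015). Only WT complete samples reached 1 RPKM, so the filter set the direction of the WT fall. Cxcl2, 10.8 kb beyond Cxcl1, was 0.0930 ± 0.0239 RPKM in WT complete medium and did not exceed 0.118 RPKM in any sample. Stretches of 50 bases shared with other annotated transcripts made up 5.84% of Cxcl2 and 4.29% of Cxcl3, and none of Cxcl1.

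Cxcl15, known in mice as lungkine and described in the lung, stood apart from its neighbours. It was 8.38, 7.86 and 7.80 RPKM in the p53-null complete samples and no more than 0.0894 RPKM in the 9 other samples. Withdrawal lowered it 124-fold in the p53-null line, from 8.01 ± 0.314 to 0.0645 ± 0.0239 RPKM (log2 change -3.08 ± 0.0346, limma adjusted p = 2.4e-15). In WT cells it was listed at 0 or at most at 0.0359 RPKM in both media (adjusted p = 0.76). The p53-null line was higher in complete medium by 3.15 ± 0.0346 on the log2 scale (limma adjusted p = 9.1e-17). Cxcl15 reached 1 RPKM in the p53-null complete samples alone. The filter thus set the direction of this difference and of the fall in that line. In glutamine-free medium the difference was 0.08 ± 0.0346 (adjusted p = 0.045), and it was lost, with adjusted p of 0.053 to 0.15, when WT complete replicate 2, any WT glutamine-free replicate, p53-null complete replicate 2 or p53-null glutamine-free replicate 2 or 3 was left out.

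**Figure D4:**
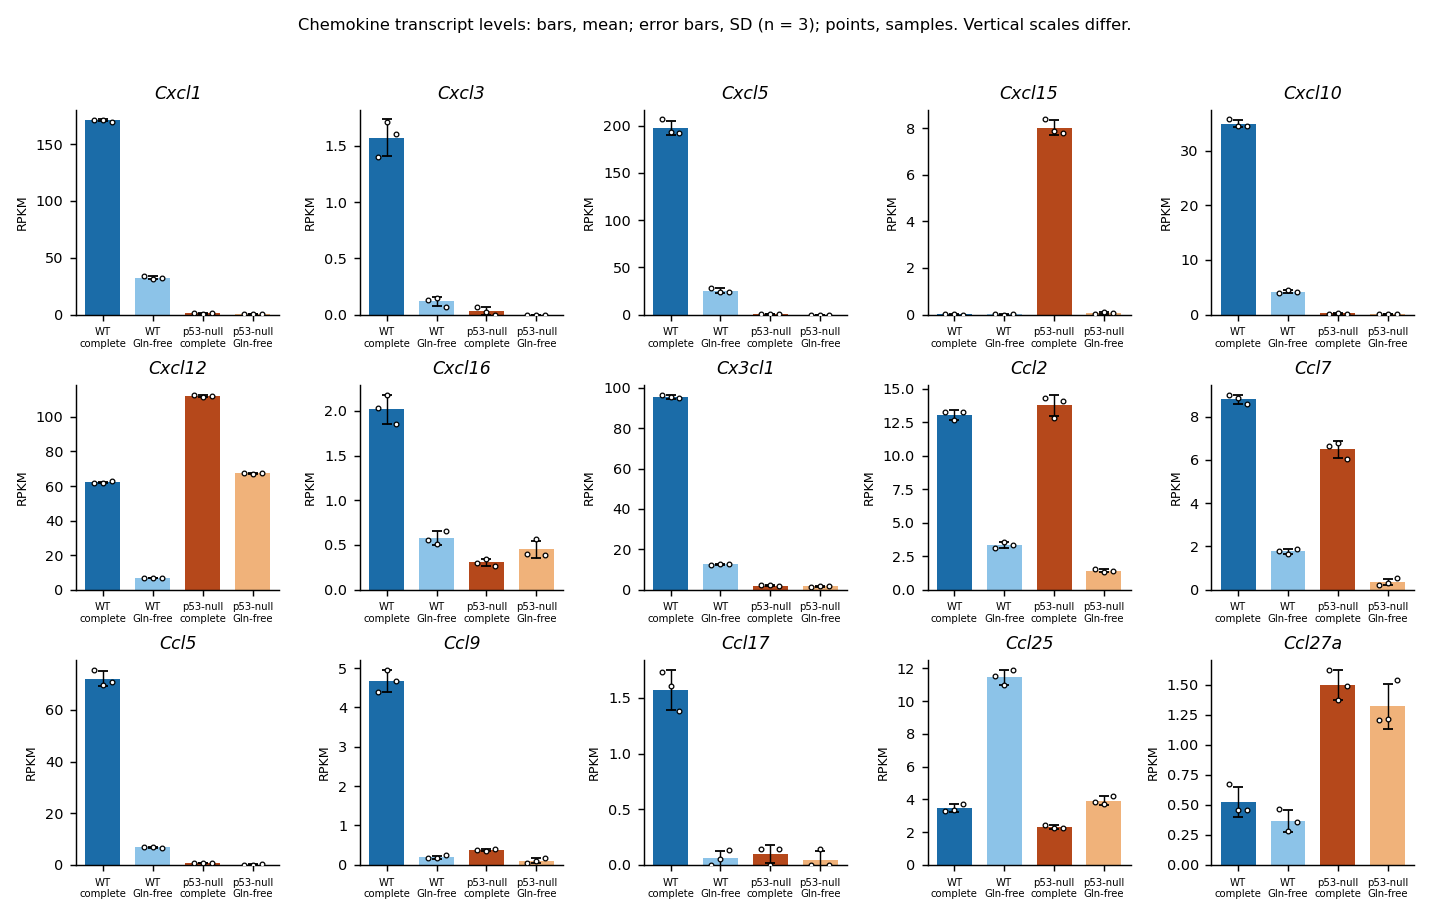
RPKM of the 15 tested chemokine genes (vertical axes, separate scale for each gene) in the 4 groups. Bars are means, error bars SD, points the 3 samples, and Gln-free stands for glutamine-free. Most genes are highest in WT complete medium, Cxcl12, Cxcl15 and, by a small margin with overlapping samples, Ccl2 are highest in p53-null complete medium, Ccl25 in WT glutamine-free medium and Ccl27a in the p53-null line.

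Among the CXCR3 ligands, which interferons induce, Cxcl10 (chromosome 5, 92346638 to 92348889, minus strand) was tested. It was 35.7, 34.5 and 34.6 RPKM in WT complete and 3.98, 4.45 and 4.15 RPKM in WT glutamine-free samples. In p53-null cells it was at 0.136 to 0.349 RPKM in complete and 0.121 to 0.161 RPKM in glutamine-free medium, and these samples overlapped. The WT fall was 8.34-fold (log2 change -2.79 ± 0.0559, limma adjusted p = 2.5e-14). The change in p53-null cells did not pass (-0.09 ± 0.0559, adjusted p = 0.16), except with median centring (0.0056) or without p53-null complete replicate 3 (0.042). In complete medium Cxcl10 was 159-fold lower in the p53-null line, and in glutamine-free medium 29.03-fold lower (log2 difference -2.18 ± 0.0559, limma adjusted p = 3.5e-13). The filter set the direction of both differences, since only WT samples of Cxcl10 reached 1 RPKM. Cxcl11, the neighbour of Cxcl10, reached 0.106 to 0.127 RPKM in WT complete medium and was listed at 0 in all 6 p53-null samples. Its exons lie for 41.7% under Gm2673 on the other strand, and reads from the 2 strands cannot be told apart with this kit.

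The stretch upstream of Cxcl10 is given because it held, besides kappaB matches, the only match to be found, among the 10 tested chemokines with a window in the table, to the core of the interferon-stimulated response element (ISRE), a motif bound by interferon-activated factors and found on either strand in 3.44% of all windows. It is chr5:92348890-92349109 on the minus strand, with the ISRE match first in capitals and then both kappaB runs.
Cxcl10: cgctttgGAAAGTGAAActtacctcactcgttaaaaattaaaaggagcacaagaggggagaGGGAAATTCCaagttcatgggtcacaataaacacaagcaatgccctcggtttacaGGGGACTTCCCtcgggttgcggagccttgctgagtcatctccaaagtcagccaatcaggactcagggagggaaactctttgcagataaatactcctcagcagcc

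Cxcl12, the ligand of CXCR4 and of the scavenging receptor ACKR3 (chromosome 6, 117168535 to 117181367), was the chemokine with the highest level in the p53-null line. It was 113, 111 and 112 RPKM in p53-null complete and 67.3, 67.2 and 67.6 RPKM in p53-null glutamine-free samples. The WT samples held 61.9, 62.0 and 62.6 RPKM in complete and 6.88, 6.82 and 6.90 RPKM in glutamine-free medium. No groups overlapped, and WT glutamine-free cells stood far under the other 3 groups. Withdrawal lowered the mean 9.06-fold in WT (log2 change -3.01 ± 0.0126, limma adjusted p = 6.2e-20) and 1.66-fold in p53-null cells (-0.73 ± 0.0126, adjusted p = 7.4e-14). The p53-null line was 1.803-fold higher in complete and 9.81-fold higher in glutamine-free medium.

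Cx3cl1, which encodes fractalkine, a chemokine anchored in the membrane of the cell that makes it, was 96.6, 95.2 and 94.7 RPKM in WT complete and 12.4, 12.9 and 12.5 RPKM in WT glutamine-free samples (chromosome 8, 94772009 to 94782427). The p53-null samples held 2.09, 2.22 and 1.81 RPKM in complete and 1.55, 1.85 and 1.68 RPKM in glutamine-free medium. WT lay far above p53-null in both media, and within the p53-null line the samples of both media overlapped. The WT fall was 7.57-fold (log2 change -2.83 ± 0.0475, limma adjusted p = 4.7e-15). In p53-null cells the log2 change was -0.18 ± 0.0475 (adjusted p = 0.0042). The p53-null line was 46.8-fold lower in complete and 7.46-fold lower in glutamine-free medium.

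Cxcl16, another membrane-anchored chemokine, was 2.02 ± 0.163 RPKM in WT complete, 0.575 ± 0.0768 in WT glutamine-free, 0.304 ± 0.0404 in p53-null complete and 0.449 ± 0.0975 RPKM in p53-null glutamine-free samples. Cxcl16 fell in WT (log2 change -0.94 ± 0.0563, limma adjusted p = 2.3e-09), a direction set by the filter, since only WT complete samples reached 1 RPKM. In p53-null cells it rose by 0.15 ± 0.0563 (adjusted p = 0.025). That call was lost with median centring (adjusted p = 0.45) and without p53-null complete replicate 1 (0.053), p53-null complete replicate 3 (0.084) or p53-null glutamine-free replicate 2 (0.13). Between the lines in glutamine-free medium Cxcl16 did not pass (-0.12 ± 0.0563, adjusted p = 0.057), but it did under 7 alternative settings, among them without WT complete replicate 3 (0.047), WT glutamine-free replicate 2 (0.040) or p53-null glutamine-free replicate 2 (0.0091). Zmynd15 on the other strand covers 18.3% of the exon bases of Cxcl16, and reads of these genes cannot be told apart there.

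The CCR2 ligands Ccl2 and Ccl7, which attract monocytes, were above 6 RPKM in every complete sample of both lines. They lie 8.26 kb apart on the plus strand of chromosome 11 (82035571 to 82037453 and 82045712 to 82047525). Ccl2 was 13.2, 12.6 and 13.3 RPKM in WT complete and 14.3, 12.8 and 14.1 RPKM in p53-null complete samples. Without glutamine WT samples held 3.09, 3.56 and 3.37 RPKM, and p53-null samples 1.52, 1.33 and 1.43 RPKM. The lines overlapped in complete medium and separated without glutamine. The difference in complete medium was 0.07 ± 0.0481 on the log2 scale (limma adjusted p = 0.19), and it passed with libraries rescaled to one sum (0.17, adjusted p = 0.0050) and without p53-null complete replicate 2 (0.12, adjusted p = 0.038). Withdrawal lowered Ccl2 3.91-fold in WT (log2 change -1.70 ± 0.0481, adjusted p = 8.0e-13) and 9.67-fold in p53-null cells (-2.61 ± 0.0481, adjusted p = 1.3e-13).

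Ccl7 was 9.01, 8.85 and 8.60 RPKM in WT complete, 1.79, 1.64 and 1.88 RPKM in WT glutamine-free, 6.66, 6.78 and 6.05 RPKM in p53-null complete and 0.222, 0.327 and 0.525 RPKM in p53-null glutamine-free samples. No groups overlapped. The fall was 4.98-fold in WT (log2 change -1.83 ± 0.0684, limma adjusted p = 1.5e-11) and 18.1-fold in p53-null cells (-2.47 ± 0.0684, adjusted p = 3.7e-12). The p53-null line was 1.36-fold lower in complete medium (log2 difference -0.39 ± 0.0684, adjusted p = 1.2e-04) and 4.94-fold lower in glutamine-free medium. Ccl8 and Ccl12, which also lie on chromosome 11, did not exceed 0.335 and 0.0475 RPKM.

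Ccl5, also called RANTES, attracts T cells and monocytes, and lies 1478 kb beyond Ccl7 (chromosome 11, 83525778 to 83530518, minus strand). It was 75.6, 69.8 and 71.0 RPKM in WT complete, 7.04, 6.90 and 6.66 RPKM in WT glutamine-free, 0.582, 0.763 and 0.704 RPKM in p53-null complete and 0.0837, 0.0895 and 0.166 RPKM in p53-null glutamine-free samples. The 4 groups were fully separate. Withdrawal lowered it 10.5-fold in WT (log2 change -3.22 ± 0.0459, limma adjusted p = 9.8e-16) and 6.03-fold in p53-null cells (-0.60 ± 0.0459, adjusted p = 5.9e-08). The p53-null line was 106-fold lower in complete and 60.7-fold lower in glutamine-free medium, directions set by the filter, since only WT samples reached 1 RPKM.

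Ccl9, a ligand of CCR1 that lies 42.4 kb from Ccl5, was 4.38, 4.95 and 4.68 RPKM in WT complete samples and did not exceed 0.398 RPKM in any other sample. It fell 24.1-fold in WT (log2 change -2.25 ± 0.0477, limma adjusted p = 4.4e-14) and 3.44-fold in p53-null cells (-0.31 ± 0.0477, adjusted p = 4.5e-05). Ccl9 reached 1 RPKM in WT complete samples alone, so the direction of the WT fall was set by the filter. Between the lines in glutamine-free medium it did not pass (adjusted p = 0.053), but it did under 10 alternative settings, among them without WT complete replicate 1 (0.042) or 2 (0.044), without WT glutamine-free replicate 2 (0.047) and without p53-null glutamine-free replicate 3 (0.017). Its promoter stretch, chr11:83578637-83578756 on the minus strand, is given as the remaining tested member with a kappaB match upstream of the start, in capitals and read from the other strand.
Ccl9: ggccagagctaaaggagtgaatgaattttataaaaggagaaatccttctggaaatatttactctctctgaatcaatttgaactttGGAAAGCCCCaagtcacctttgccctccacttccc

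Ccl17, a ligand of CCR4 on T cells, which lies 28.0 kb beyond Cx3cl1 on chromosome 8, was 1.73, 1.61 and 1.38 RPKM in WT complete samples and did not exceed 0.145 RPKM elsewhere, with 5 of the 9 other samples above 0. Ccl17 fell in WT (log2 change -1.28 ± 0.0740, limma adjusted p = 1.6e-09), a direction set by the filter, since only WT complete samples reached 1 RPKM. In p53-null cells it did not pass (-0.07, adjusted p = 0.43), except with median centring (0.043). Ccl17 was also lower in the p53-null line in complete medium (-1.23 ± 0.0740, limma adjusted p = 2.4e-09), a direction likewise set by the filter. Ccl22 on the far side of Cx3cl1 was listed at 0 in 11 samples.

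Ccl25, the ligand of CCR9, known from thymus and small intestine (chromosome 8, 4325210 to 4360020, plus strand), was the member that rose in both lines. It was 3.30, 3.34 and 3.74 RPKM in WT complete and 11.5, 10.98 and 11.9 RPKM in WT glutamine-free samples. The p53-null samples held 2.44, 2.26 and 2.25 RPKM in complete and 3.87, 3.69 and 4.21 RPKM in glutamine-free medium. In each line all glutamine-free samples lay above all complete samples. The rise was 3.32-fold in WT (log2 change 1.48 ± 0.0488, limma adjusted p = 3.7e-12) and 1.69-fold in p53-null cells (0.57 ± 0.0488, adjusted p = 1.7e-07), and it kept its direction and its call under quantile normalization, rescaling to one sum and median centring. Elavl1 on the other strand covers 2.74% of its exon bases.

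Ccl27a, a skin chemokine, was higher in the p53-null line, with samples of 1.37 to 1.63 RPKM against 0.454 to 0.672 RPKM in complete and 1.21 to 1.54 against 0.284 to 0.466 RPKM in glutamine-free medium (log2 differences 0.71 and 0.76 ± 0.0725, limma adjusted p = 6.7e-07 and 3.3e-07). Only p53-null samples of Ccl27a reached 1 RPKM, so the direction of these differences was set by the filter. Neither medium response passed (limma adjusted p = 0.055 in WT and 0.19 in p53-null cells). In WT the log2 change of -0.16 passed without WT complete replicate 2 (0.042) or 3 (0.045), WT glutamine-free replicate 1 (0.023) or p53-null glutamine-free replicate 3 (0.036), with pseudocounts of 0.1 (0.024) and 0.5 (0.038) and with median centring (0.045). With quantile normalization it became a log2 change of 0.05. In p53-null cells the fall passed with median centring (0.014) and without p53-null glutamine-free replicate 3 (0.044). Stretches of 50 bases shared with other annotated transcripts make up 45.0% of Ccl27a and 98.1% of its copy Ccl27b, so the assignment of reads among these copies is uncertain.

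Of the 14 members under the level of testing, Cxcl17 came nearest to it, with 0.500, 0.589 and 0.197 RPKM in p53-null complete samples and at most 0.0320 RPKM in all others. Like Cxcl15 it was highest in that group. The other 13 did not exceed 0.371 RPKM, which was the value of Ccl3 in a WT complete sample. Ccl3, Ccl4 and Cxcl11 were listed at 0 in all p53-null samples, while Ccl20 was highest in the p53-null line, at 0.105 ± 0.0243 RPKM in complete and 0.161 ± 0.0444 in glutamine-free medium. At the other side of the level, Ccl27a, Cxcl3 and Ccl17 had the lowest maxima of the tested members, at 1.63, 1.72 and 1.73 RPKM. These levels are too low for more than a description.

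Of 23 genes for chemokine receptors 18 were in the table and 1 was tested, Ackr3, which encodes the scavenging receptor for CXCL12 and CXCL11. It was 42.7 ± 0.722 RPKM in WT complete, 21.4 ± 0.545 in WT glutamine-free, 2.64 ± 0.133 in p53-null complete and 0.332 ± 0.0614 RPKM in p53-null glutamine-free samples. WT samples lay above all p53-null samples in either medium. It fell in both lines (log2 change -0.97 ± 0.0371 in WT and -1.45 ± 0.0371 in p53-null cells, limma adjusted p = 1.9e-11 and 1.9e-12). Cxcr4 did not exceed 0.0251 RPKM and Cxcr2 0.0164 RPKM in any sample. Ppbp, an ELR CXC chemokine whose symbol falls outside the name rule, went from 9.94 ± 0.686 to 0.442 ± 0.173 RPKM in WT and was 0.0563 ± 0.0196 RPKM in p53-null complete samples (WT log2 change -2.93 ± 0.0697, adjusted p = 1.4e-13).

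Transcripts of the NF-kB pathway, through which inflammatory chemokines are induced, did not move one way, and the activity of the pathway was not measured. Of its 37 genes 16 rose and 19 fell in WT on withdrawal, with a median log2 change of -0.25 against 0.01 for all entries, of which 46.0% rose and 44.0% fell. In p53-null cells 23 rose and 10 fell (18 and 14 with median centring), median 0.14 against 0.08 for all entries, of which 50% rose and 32.0% fell. The receptor gene Il1r1 went from 16.1 ± 0.106 to 3.29 ± 0.115 RPKM in WT and its partner Il1rap from 4.87 ± 0.180 to 1.06 ± 0.0421 RPKM, while the inhibitor gene Nfkbib rose from 3.30 ± 0.180 to 11.96 ± 0.196 RPKM. In p53-null cells Relb went from 6.42 ± 0.131 to 13.0 ± 0.249 RPKM and Tnfaip3, a feedback inhibitor, from 3.88 ± 0.172 to 8.07 ± 0.0830 RPKM. Between the lines in complete medium 24 of the 37 were lower and 11 higher in p53-null cells, against 42.5% and 48.4% of all entries, with a median of -0.59 against 0.05. Birc3, a target of the pathway, was 0.135 ± 0.0115 against 11.7 ± 0.327 RPKM, and Nfkb2, which encodes the p100 subunit, went the other way, at 27.9 ± 0.343 against 2.59 ± 0.211 RPKM.

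Of 14 tested interferon regulators 11 fell and 2 rose in WT, against 44.0% and 46.0% of all entries, with a median log2 change of -0.45 against 0.01. In p53-null cells 5 fell and 7 rose, near the 32.0% and 50% of all entries, with a median of 0.11 against 0.08. Stat2, of the complex that binds interferon elements, went from 7.02 ± 0.139 to 0.790 ± 0.0553 RPKM in WT and from 6.37 ± 0.188 to 3.52 ± 0.137 RPKM in p53-null cells. Of 17 cytokine and adhesion genes often induced with chemokines 6 were tested, and in WT 3 fell and 3 rose, against 44.0% and 46.0% of all entries. The cytokine gene Il6 went from 13.8 ± 0.601 to 1.16 ± 0.0660 RPKM and Vcam1, an adhesion molecule gene, from 4.74 ± 0.107 to 0.342 ± 0.0665 RPKM, while Ptgs2, which encodes cyclooxygenase 2, rose from 32.9 ± 0.487 to 87.4 ± 3.74 RPKM. In p53-null cells 3 of the 6 rose and 1 fell, or 2 and 3 with median centring, against 50% and 32.0% of all entries. Il6 was 0.0693 ± 0.0563 RPKM in the p53-null line in complete medium. Of 11 tested genes for cleavage and cell-surface presentation of chemokines 10 fell and 1 rose in WT, against 44.0% and 46.0% of all entries, with a median of -1.01 against 0.01. Mmp2, a protease that trims CXCL12, went from 75.8 ± 0.359 to 15.7 ± 0.155 RPKM. In p53-null cells 3 rose and 4 fell (3 and 8 with median centring, 3 and 7 with quantile normalization), against 50% and 32.0% of all entries, and Mmp2 was 0.358 ± 0.0324 RPKM in complete medium.

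Markers of other cell types were low except for 1 epithelial gene. The 9 macrophage and myeloid markers in the table summed to 5.48 to 5.73 RPKM in WT complete, 1.98 to 2.13 in WT glutamine-free, 8.93 to 9.57 in p53-null complete and 4.58 to 5.14 RPKM in p53-null glutamine-free samples, mostly from Cd14 and Cd68, and 2 of the 9 were tested. Itgam was listed at 0 in all glutamine-free samples of both lines and Laptm5 in those of WT, and Ptprc in the p53-null complete samples. The 6 lymphoid markers in the table summed to at most 0.0872 RPKM in any sample and the 5 neutrophil markers to at most 0.806 RPKM. The 6 endothelial markers summed to 0.0731 to 0.0973 RPKM in WT complete, 0.585 to 0.657 in WT glutamine-free and 1.38 to 1.90 RPKM in p53-null samples, where Kdr was highest. The 5 epithelial markers in the table summed to at most 0.144 RPKM in WT and to 60.0 to 77.0 RPKM in p53-null samples, nearly all from Krt18. Their part in the chemokine values was not tested.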

How the data were processed

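Libraries were made with the TruSeq RNA kit from 0.5 ug of total RNA, per the labels' protocols. The table the authors deposited holds RPKM for each entry and sample. CASAVA 1.8, HISAT2 2.0.4, Partek and mm10 are named without roles in the submitters' processing notes, and no counting rule is given in the sources used here. RPKM keeps no read counts, so no count test was run, and a gene with many reads lowers all other values. Values were taken as log2(RPKM + 1), a scale that understates changes near or under 1 RPKM. Entries with at least 1 RPKM in at least 3 samples were fitted together with limma 3.58.1 in R 4.3.3 (means of 4 groups, mean-variance trend), with Benjamini-Hochberg adjustment over all 11461 tested entries of a comparison. Ratios of mean RPKM carry no test. Members, gene lists and tests were chosen with earlier results of these data known. Named were all tested members, untested members by count and range, and up to 3 called genes per pathway list and comparison; Cxcr4, Cxcr2, Krt18, Thy1, further markers and untested members given by value were chosen after their values were seen. Positions are from GENCODE M21 (GRCm38), and promoter windows from RefSeq (GRCm38.p6), searched on both strands for the kappaB consensus, the ISRE core, TGANTCA (AP-1) and TGATGNAA (C/EBP-ATF). On simulated data, 86.6% of 67 genes changed 1.2-fold in the WT medium comparison, 98.5% of 67 changed 1.5-fold and 100% of 66 changed 2-fold were recovered in a run on 11461 genes, with 14 calls among 11261 unchanged genes. These folds are of RPKM + 1, with normally distributed noise. In the data 46.0% of entries were called higher and 44.0% lower in that comparison, so the simulated rates need not hold there. Alternatives were other pseudocounts, filters, scalings and models, a replicate block, and leaving out each sample.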

Additional observations from a re-analysis of the deposited data

Results flagged for a closer look

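For 14 of the 15 tested members the response to glutamine withdrawal differed between the lines by limma's test of the difference (adjusted p under 0.05), where 46.4% of all entries had a higher and 38.4% a lower log2 response in the p53-null line. The count is a description, since Ccl9, Ccl17, Cxcl3, Cxcl15 and Cxcl16 reached 1 RPKM only in the group where they were high, and a difference of their responses follows from how they passed the filter. Ccl5, Cxcl5 and Cxcl10 passed it through WT samples alone. They were under 1 RPKM in every p53-null sample, which limits their fall there on the log2(RPKM + 1) scale. The difference, p53-null minus WT on the log2(RPKM + 1) scale, was 2.85 for Cxcl5, 2.70 for Cxcl10, 2.65 for Cx3cl1, 2.62 for Ccl5, 2.28 for Cxcl12, 1.93 for Ccl9, 1.65 for Cxcl1, 1.21 for Ccl17, 1.16 for Cxcl3 and 1.09 for Cxcl16. On that scale all of these fell less, or did not fall, in p53-null cells. In RPKM, Cxcl5 and Cxcl3 were listed at 0 in all p53-null glutamine-free samples, so no fold can be given for them there. The difference was -3.07 for Cxcl15, -0.91 for Ccl2 and -0.64 for Ccl7, which fell more in p53-null cells, and -0.91 for Ccl25, which rose less. With a pseudocount of 0.1 these values kept their signs, but that of Cxcl1 became 0.61 and that of Ccl5 1.48, while those of Ccl17, Cxcl3, Cxcl16, Ccl7 and Cxcl15 became 3.03, 2.62, 2.09, -1.64 and -5.54. Their size can therefore depend on the scale where a group lies near or under 1 RPKM. Cxcl10 nevertheless stayed at 2.70 with both p53-null groups under 1 RPKM, and Cx3cl1 (2.65) and Cxcl12 (2.43) moved little. The test of Ccl27a did not pass (0.05, adjusted p = 0.65).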

How the results depend on the processing

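Of 1615 values of single members under the alternatives, 1555 kept direction and call, 38 gained and 12 lost a call with the sign kept, and 10 changed sign. None of the 10 was a called value in its alternative. Among them Cxcl15 between lines in glutamine-free medium also lost its call with median centring (limma adjusted p = 0.13). The sign changes were Ccl27a in WT medium (0.0550 with quantile normalization) and in the difference of responses (-0.0901 with quantile normalization, -0.0495 with median centring), and Cxcl15 between lines in glutamine-free medium (-0.0569 with median centring). Leaving out 1 sample gave -0.0225 to 0.00290 for Cxcl15 in WT medium, -0.0835 to 0.0274 for Ccl17 between lines in glutamine-free medium and -0.0161 to 0.102 for Ccl27a in the difference of responses. Without the filter 20 of the 29 members were called in WT medium and 23 between lines in complete medium, since more entries were tested. Of 18 receptors 3 and 2 were called in WT and p53-null medium, and of 16 cytokine and adhesion genes 11 in WT. The share of all entries called without the filter was not counted, so nothing is read from these counts. With median centring all 11 tested cleavage and presentation genes were called in p53-null medium. Of all 11461 tested entries 4525 were then called higher and 4984 lower. Leaving out each sample gave 13 to 14 and 9 to 11 called members of 15 in the medium comparisons of WT and p53-null cells. Between the lines it gave 14 to 15 in complete and 11 to 13 in glutamine-free medium, and 14 for the difference. With all samples, 46.0% of all entries were called higher and 44.0% lower in WT medium, and 50% and 32.0% in p53-null medium. These shares were 48.4% and 42.5% between lines in complete medium, 51.4% and 40.0% in glutamine-free medium, and 46.4% and 38.4% for the difference. Median centring moved the median log2 change of all entries from 0.08 to -0.02 in p53-null medium and from 0.10 to -0.03 between lines in glutamine-free medium, and rescaling to one sum moved the latter to 0.23. Same-numbered samples of compared groups deviated together at r over 0.1 in 0 of 12 pairs, and 4 of the 12 matched their own number best. Such correlations cannot settle whether the numbers pair samples. With a replicate block the calls of Ccl27a in WT medium (limma adjusted p = 0.031) and of Ccl9 between lines in glutamine-free medium (0.037) were gained. That of Cxcl15 between lines in glutamine-free medium (0.061) was lost, and no other member's call changed. The depth of the libraries is unknown, so the counting error of low values could not be estimated.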
